A study of Rattus norvegicus with 12 samples.

Results

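The enzymes and pumps that dispose of reactive oxygen and foreign chemicals were compared in the striatum of dyskinetic and untreated parkinsonian rats. Members were taken by gene symbol: glutathione transferases (Gst, Mgst), glutathione peroxidases (Gpx), peroxiredoxins (Prdx), the thioredoxin family (Txn), superoxide dismutases and catalase (Sod, Cat), quinone, haem and glutathione supply enzymes (Nqo, Hmox, Gclc, Gclm, Gsr), aldehyde dehydrogenases (Aldh), aldo-keto reductases (Akr), cytochromes P450 (Cyp) and ATP-binding cassette transporters of families B, C and G (Abc). They came to 121 genes, measured by 125 probes, of 9218 named genes in all. The symbol pattern itself uses no measured value. A symbol pattern also takes in relatives with other jobs, such as Abcc8, a channel subunit.

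Messenger RNA was measured on 12 Illumina arrays of 1 colour, 1 per striatal sample. The 6 LID samples came from rats of a Parkinson's disease model that received chronic levodopa, as L-DOPA methyl ester at 25 mg/kg together with benserazide at 6.25 mg/kg, and were dyskinetic. The 6 PD control samples came from rats of the same model without levodopa, and both groups were sampled on day 8 following chronic treatment. All samples are therefore parkinsonian. No samples of rats that took levodopa without dyskinesia were analysed here, so levodopa, benserazide and abnormal movement cannot be told apart here. How the lesion was made and on which side, the strain, age and sex of the rats, and any vehicle for the PD controls are details not given in the sources used here. GEO's labels do not say that each sample is its own animal, and p-values reflect only how far these 12 samples spread.

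Superoxide dismutases turn superoxide into hydrogen peroxide, which catalase, glutathione peroxidases and peroxiredoxins remove. The peroxidases and peroxiredoxins, but not catalase, do so with reducing power from glutathione and thioredoxin. Glutathione transferases, quinone reductases, aldehyde dehydrogenases and aldo-keto reductases take care of reactive quinones and aldehydes, which dopamine and levodopa form when they are oxidised, and P450 enzymes and ABC pumps handle sterols, fatty acids and drugs. Many of these genes are targets of the transcription factor NRF2, which KEAP1 holds down at rest, and in brain many are strongest in astrocytes and at vessels.

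Deposited intensities ran from 36.5 to 22793 in arbitrary units (a.u.), and any pair of arrays correlated at 0.979 to 0.996 across probes on the log2 scale. Differences are given as log2 of LID minus PD control, with standard error (SE), from limma on background-corrected, quantile-normalised values, and a gene passed the test at a Benjamini-Hochberg adjusted p under 0.05 over all 13375 probes. Intensities are the deposited values, and each gene is read from its brightest probe. Striatal projection neuron markers were present, with summed intensities of 61000 to 77200 a.u. in LID and 49400 to 73800 a.u. in PD control over 17 of 20 listed genes. PD control replicates 1, 3 and 6 stood apart: their sums were 49600, 49400 and 50800 a.u., below those of the other 9 arrays. In bulk tissue, fewer cells of a type and less RNA per cell cannot be told apart.

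Of the 121 members, 15 passed the test (12.4%), close to the 13.5% of all 9218 genes that did. They were split into 6 that were higher in LID, against 7.46% of all genes, and 9 that were lower, against 6.03%. Mgst2, Gpx2, Aldh5a1, Cyp1b1, Cyp2d2 and Cyp4b1 were higher. Gstp1, Gstt1, Gpx4, Txnrd3, Aldh16a1, Cyp7b1, Abcc8, Abcg1 and Abcg2 were lower. The peroxiredoxins, the dismutases with catalase, the quinone, haem and glutathione supply enzymes and the aldo-keto reductases had 0 genes past limma's threshold. At an unadjusted p under 0.05 in limma's fit they had 1 of 5 (Prdx6), 1 of 4 (Sod3), 2 of 7 (Nqo1 and Gsr) and 3 of 11 (Akr1b10, Akr1c13 and Akr1e2). The share of all genes at that looser threshold was not counted, so these counts cannot be set against it.

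The median log2 difference of the members was -0.023, against -0.0013 for all genes. Groups did not overlap at all for 5 members, Mgst2, Gpx4, Txnrd3, Cyp1b1 and Abcg1, while 6.95% of all genes had groups that did not overlap. Among probes above the median brightness 8 of 64 members passed (12.5%), against 18.4% of all such genes. Among dimmer probes 7 of 57 passed (12.3%), against 7.42% of all genes. Without PD control replicates 1, 3 and 6, 5 members passed, Mgst2, Txnrd3, Abcg1, Gstp1 and Aldh16a1. That is 4.13% of members against 8.85% of all genes in the same fit. Leaving out 1 array at a time gave 7 to 12 members. That is 5.79% to 9.92% of members, against 9.3% to 13% of all genes, and the members' share was lower in each of those 12 fits. In all of them 7 genes passed: Mgst2, Gpx2, Txnrd3, Cyp1b1, Cyp4b1, Abcc8 and Abcg1.

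**Figure D1:**
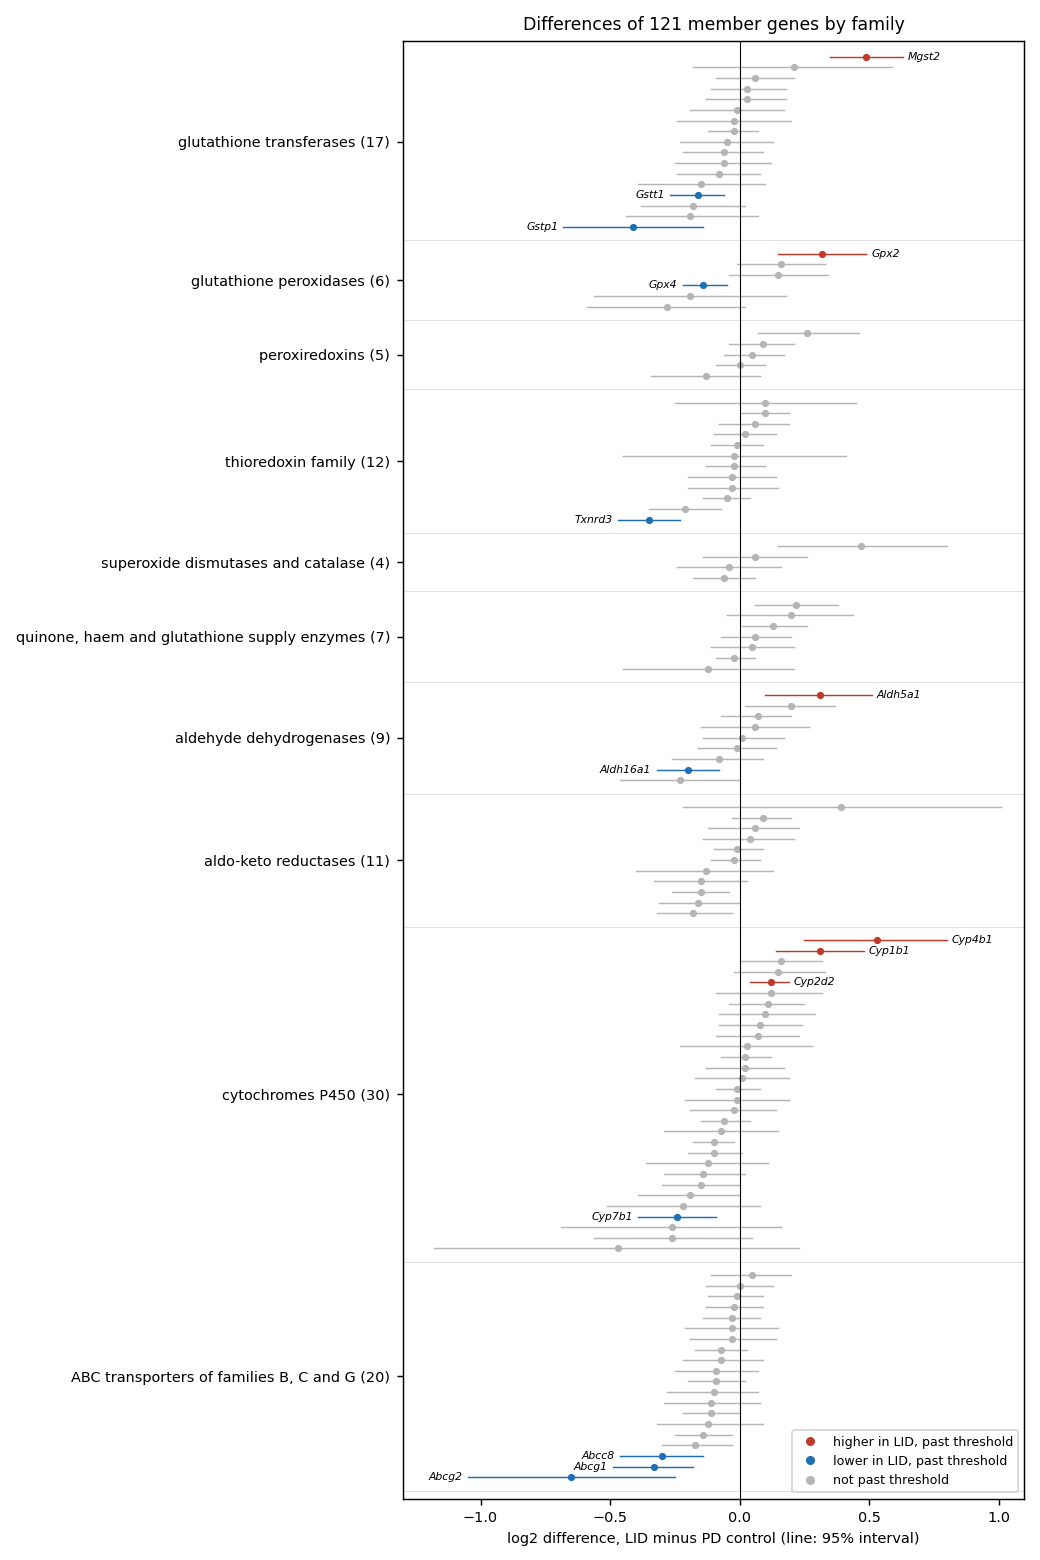
Log2 difference (LID minus PD control, horizontal axis) of each of the 121 member genes, grouped by family with the number of genes in brackets; points are limma estimates and lines their 95% intervals. Red points were higher and blue points lower in LID past the threshold, grey points did not pass, and 18 of the 20 ABC transporters lie left of 0.

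The smallest adjusted p among the members belonged to a gene of glutathione conjugation. Mgst2 encodes a membrane-bound microsomal transferase that also makes leukotriene C4, and it was higher in LID. Its intensity ran from 121 through a median of 133 to 139 a.u. in LID, and from 80.7 through 89.4 to 110 a.u. in PD control. Every LID array was above every PD control array, a difference of 0.49 ± 0.06 (SE, n = 6 per group, limma adjusted p = 0.000524). It passed in all 12 fits without 1 array and in all 10 other settings. Mgst1, the other microsomal transferase measured, was spread from 386 to 654 a.u. in LID and from 301 to 716 a.u. in PD control and did not pass (0.21 ± 0.18).

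Gstp1, the pi-class transferase, which in rat brain is found above all in oligodendrocytes, was lower in LID. Its intensities ran from 1251 through a median of 1413 to 1522 a.u. in LID and from 1208 through 2003 to 2248 a.u. in PD control. Of the PD controls, 5 were above all LID arrays and replicate 3 was below them all. The difference was -0.41 ± 0.12 (limma adjusted p = 0.0485), and a second probe gave -0.48 ± 0.10 (adjusted p = 0.00826). The call of the brightest probe held in 1 of the 12 fits without 1 array, the fit without PD control replicate 3 (-0.53, adjusted p = 0.00119), and was lost in the other 11, with adjusted p up to 0.105. Of 13 measured of 16 listed oligodendrocyte markers, 0 were higher and 2 lower in LID (Cnp -0.45, Opalin -0.75), against 6.03% of all genes lower, and 11 did not pass, at -0.42 to 0.11. The list had summed intensities of 29300 to 42000 a.u. in LID and 28600 to 45100 a.u. in PD control. PD control replicate 3 had the lowest of those sums, and none of the markers was at 0. Their part in the Gstp1 result was not tested.

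Gstt1, a theta-class transferase, ran from 75.7 through 82.6 to 90.8 a.u. in LID and from 86.5 through 93.8 to 98.8 a.u. in PD control. The groups overlapped slightly and the difference was -0.16 ± 0.05 (limma adjusted p = 0.047). Its signal is dim, and with an offset of 1 in place of 50 the difference was -0.35. It passed in 2 of 12 fits without 1 array, those without LID replicate 2 or PD control replicate 3. In all, 3 of 17 transferases passed (17.6%, against 13.5% of all genes). The other 14 transferases did not pass, at -0.19 to 0.21. Among them the mu-class genes Gstm1, Gstm5 and Gstm7 had differences of -0.15 ± 0.11, -0.19 ± 0.12 and -0.18 ± 0.09, and Gsta4, which clears the lipid aldehyde 4-hydroxynonenal, -0.02 ± 0.10. The Gstm genes are close copies of each other, so their probes may share signal.

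The Gstp1 promoter is shown because the antioxidant response element through which NRF2 acts was matched in it. Capitals mark the match to TGACNNNGC, which starts 61 bases before the start site on the gene's strand. Of genes with a named probe here and a promoter on record, 15.5% had such a match. The window is RefSeq's, on assembly GRCr8, minus strand, chr1:210769656-210769955, and runs 5′ to 3′ from 250 bases before to 50 after the start.
Gstp1: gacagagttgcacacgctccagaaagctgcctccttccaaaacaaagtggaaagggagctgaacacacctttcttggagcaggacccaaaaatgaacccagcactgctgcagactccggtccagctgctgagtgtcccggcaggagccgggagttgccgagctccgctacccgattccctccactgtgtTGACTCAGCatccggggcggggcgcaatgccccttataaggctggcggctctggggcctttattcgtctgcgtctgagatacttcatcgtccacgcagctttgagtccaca

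Of 6 glutathione peroxidases, 2 passed, 1 in each direction (33.3%, against 13.5% of all genes). Gpx2, the glutathione peroxidase best known from the gut lining, had low signal and was higher in LID. Its intensities were 77.3, 83.5 and 110 a.u. (lowest, median, highest) in LID and 63.3, 65.6 and 78.5 a.u. in PD control. Only the highest PD control array reached the lowest LID array. The difference was 0.32 ± 0.08 (limma adjusted p = 0.0179), and it held without any 1 array but not without PD control replicates 1, 3 and 6 (0.26, adjusted p = 0.156).

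Gpx4, which reduces lipid hydroperoxides inside membranes and guards cells against ferroptosis, is among the brightest members. It ran from 4842 through 5186 to 5362 a.u. in LID and from 5378 through 5677 to 5956 a.u. in PD control. The groups did not overlap, yet the fall was small, at -0.14 ± 0.04 (limma adjusted p = 0.0406). The call held in 3 of 12 fits without 1 array, those without LID replicate 1, LID replicate 6 or PD control replicate 5, and the lost fits reached an adjusted p of 0.0931. Gpx1, the main cytosolic form, ran from 737 through 984 to 1163 a.u. in LID and from 897 through 1180 to 1578 a.u. in PD control and did not pass (-0.28 ± 0.14). Gpx3, the secreted form, Gpx7 and Gpx8, which sit in the endoplasmic reticulum, differed by -0.19 ± 0.17, 0.15 ± 0.09 and 0.16 ± 0.08 without passing.

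The Gpx2 promoter also held a match to TGACNNNGC, 13 bases before the start site and on the strand opposite to the gene, so the capitals show its reverse complement. The window lies at chr6:101229984-101230283 on the minus strand of GRCr8, from RefSeq.
Gpx2: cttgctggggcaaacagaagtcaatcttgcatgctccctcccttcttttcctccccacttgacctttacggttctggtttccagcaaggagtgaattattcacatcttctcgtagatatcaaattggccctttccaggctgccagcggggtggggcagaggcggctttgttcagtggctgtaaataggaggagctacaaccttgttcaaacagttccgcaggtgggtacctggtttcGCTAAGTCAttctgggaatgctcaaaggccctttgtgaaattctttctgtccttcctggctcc

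None of the 5 measured peroxiredoxins passed limma's test. Prdx6, which repairs oxidised phospholipids and is rich in astrocytes, came nearest, with 3145, 3535 and 3908 a.u. (lowest, median, highest) in LID and 2394, 3129 and 3477 a.u. in PD control. The groups overlapped (0.26 ± 0.09, limma adjusted p = 0.0829), and the gene passed only in the fit without PD control replicate 6 (0.31, adjusted p = 0.0461). Of 13 measured of 16 listed astrocyte markers, 6 were higher in LID, against 7.46% of all genes, and 0 lower. Among the 6 were Gjb6 (0.68 ± 0.10) and Slc1a2 (0.34 ± 0.07), and the 7 that did not pass ran from -0.08 (S100b) to 0.47 (Gfap). Their summed intensities were 25200 to 32000 a.u. in LID and 21500 to 27600 a.u. in PD control, and none was at 0. Their part in the differences described here was not tested. Prdx1, Prdx2, Prdx3 and Prdx5, the cytosolic and mitochondrial peroxide reductases, lay between -0.13 and 0.09.

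In the thioredoxin family 1 of 12 genes passed (8.33%, against 13.5% of all genes), and it encodes a reductase. Txnrd3, which couples the thioredoxin and glutathione systems and is known mainly from testis, was lower in LID. It ran from 120 through 136 to 147 a.u. in LID and from 167 through 172 to 189 a.u. in PD control. The groups were well apart (-0.35 ± 0.06, limma adjusted p = 0.00165), and the call held in all 12 fits without 1 array and in all 10 other settings.

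Txnrd2, the mitochondrial reductase, had 136, 144 and 159 a.u. in LID and 146, 170 and 194 a.u. in PD control (lowest, median, highest). Its difference of -0.21 ± 0.07 missed the threshold (limma adjusted p = 0.0511), and it passed without LID replicate 3 (-0.24, adjusted p = 0.0487) or PD control replicate 5 (-0.25, adjusted p = 0.0193). Without PD control replicates 1, 3 and 6 it was -0.10. Txnrd1, the cytosolic reductase and a known NRF2 target, was at 0.10 ± 0.16. Thioredoxin itself, Txn1 in the cytosol and Txn2 in mitochondria, was at -0.03 ± 0.08 in each case. Txnip, which binds and inhibits thioredoxin and responds to glucose, varied widely within both groups, from 840 to 1521 a.u. in LID and from 712 to 1651 a.u. in PD control (-0.02 ± 0.20).

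**Figure D2:**
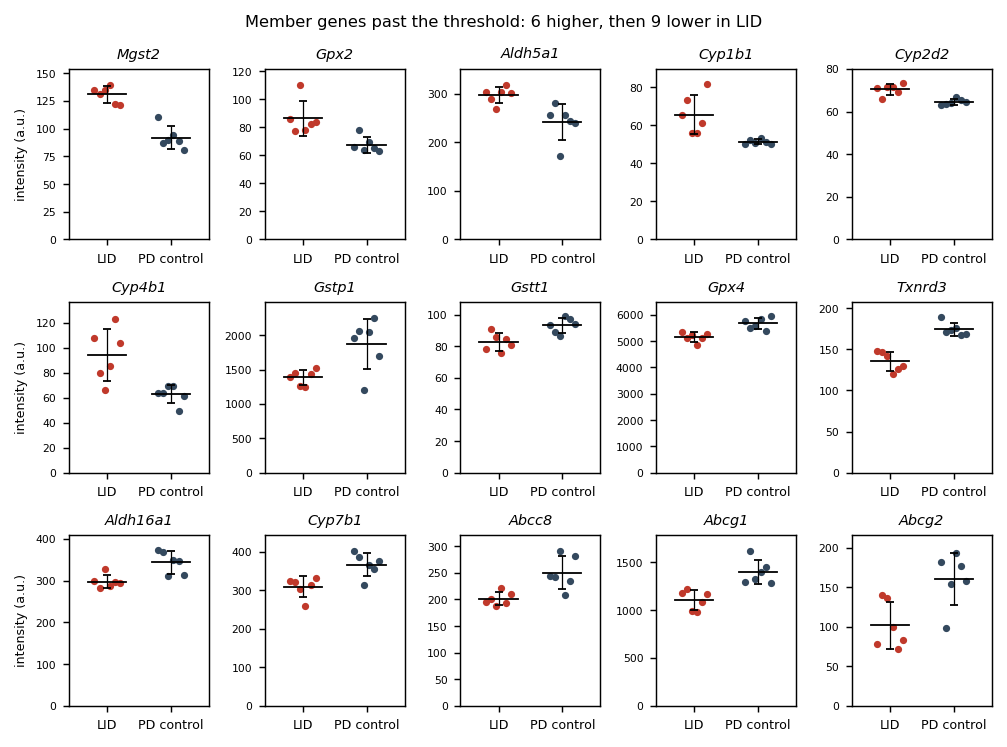
Deposited intensity (a.u., vertical axes starting at 0) on each array for the 15 members past the threshold, with the 6 LID arrays left and the 6 PD control arrays right in each panel; bars mark mean and SD. The groups are fully apart for Mgst2, Gpx4, Txnrd3, Cyp1b1 and Abcg1, and for Gpx4 by a narrow margin (5362 against 5378 a.u.).

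The superoxide dismutases and catalase did not pass. Sod3, the extracellular dismutase, which in brain lies around vessels, had the largest difference of the 4 genes. It ran from 400 through 557 to 574 a.u. in LID and from 271 through 382 to 555 a.u. in PD control. On 5 LID arrays it was between 518 and 574 a.u., and PD control replicate 1, at 555 a.u., lay among them. The difference was 0.47 ± 0.15 (limma adjusted p = 0.0597), and it passed without LID replicate 6 (0.55, adjusted p = 0.0328) or without PD control replicate 1 (0.58, adjusted p = 0.0122). Cytosolic Sod1 was at -0.06 ± 0.05, mitochondrial Sod2 at -0.04 ± 0.09 and catalase, Cat, at 0.06 ± 0.09, with adjusted p of 0.558, 0.86 and 0.738.

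The quinone, haem and glutathione supply enzymes, several of them known NRF2 targets, did not pass either. Nqo1, which reduces quinones in a single step and so keeps them from redox cycling, had 355, 399 and 438 a.u. in LID and 288, 356 and 383 a.u. in PD control (lowest, median, highest). All but the lowest LID array were above every PD control (0.22 ± 0.07, limma adjusted p = 0.068), and it passed without LID replicate 6 (0.26, adjusted p = 0.0396) or PD control replicate 1 (0.25, adjusted p = 0.0492). Hmox1, the inducible haem oxygenase, was at 0.05 ± 0.07, with a 95% interval of -0.11 to 0.21. Gclc and Gclm, the subunits that make glutathione's precursor, were at 0.20 ± 0.11 and 0.06 ± 0.06, and Gsr, which recycles oxidised glutathione, at 0.13 ± 0.06. Hmox2, the constitutive haem oxygenase, was at -0.02 ± 0.04, and Nqo2, a quinone reductase that uses other cofactors, at -0.12 ± 0.15.

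**Figure D3:**
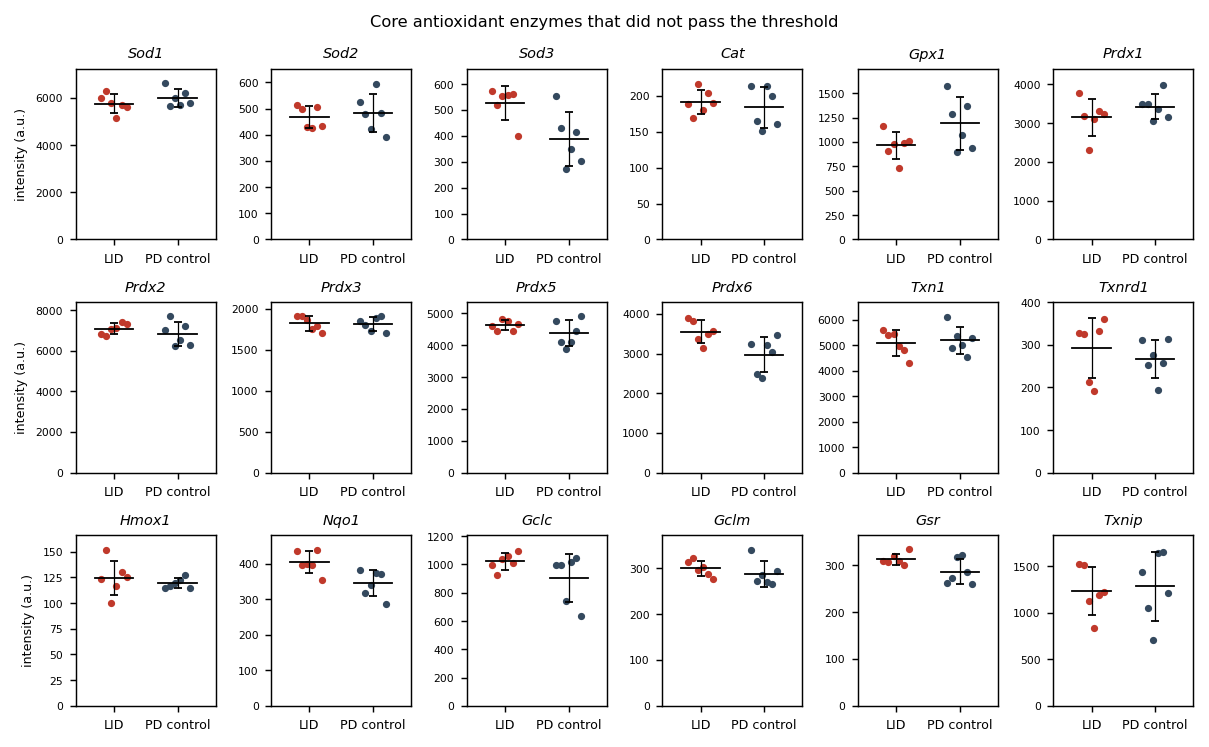
Deposited intensity (a.u., vertical axes starting at 0) on each array of 18 genes of the core antioxidant systems that did not pass. The 6 LID arrays are left and the 6 PD control arrays right, with mean and SD. Txnip, drawn among them, inhibits thioredoxin and is not an antioxidant enzyme. The groups overlap in each panel, and Txnrd2 is not among those drawn.

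Of 9 aldehyde dehydrogenases, 2 passed, 1 in each direction (22.2%, against 13.5% of all genes). Aldh5a1, the mitochondrial succinic semialdehyde dehydrogenase that completes the breakdown of GABA, was higher in LID. It ran from 269 through 303 to 318 a.u. in LID and from 172 through 250 to 280 a.u. in PD control. The groups overlapped at their edges, and PD control replicate 3, at 172 a.u., lay well below the other controls. The difference was 0.31 ± 0.09 with limma's adjusted p just under the threshold (0.0499). It was 0.21 without PD control replicate 3 (adjusted p = 0.0222), and it was 0.35 without PD control replicate 2 (adjusted p = 0.0328). The call was lost in the other 10 of 12 fits without 1 array.

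Aldh16a1 had 282, 295 and 327 a.u. in LID and 310, 348 and 374 a.u. in PD control (lowest, median, highest). It was lower in LID with slight overlap (-0.20 ± 0.06, limma adjusted p = 0.0322) and passed in 3 of 12 fits without 1 array, those without LID replicate 3, PD control replicate 3 or PD control replicate 6. Aldh1a1, which oxidises retinal and, in dopamine neurons, the dopamine aldehyde, was at -0.23 ± 0.11 and passed only without PD control replicate 6 (-0.32, adjusted p = 0.028). The other 6 aldehyde dehydrogenases lay between -0.08 and 0.20.

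The promoter of Aldh16a1 held a match to TGACNNNGC as well, 47 bases before the start on the gene's strand (capitals), at chr1:104776221-104776520 on the minus strand of GRCr8, from RefSeq.
Aldh16a1: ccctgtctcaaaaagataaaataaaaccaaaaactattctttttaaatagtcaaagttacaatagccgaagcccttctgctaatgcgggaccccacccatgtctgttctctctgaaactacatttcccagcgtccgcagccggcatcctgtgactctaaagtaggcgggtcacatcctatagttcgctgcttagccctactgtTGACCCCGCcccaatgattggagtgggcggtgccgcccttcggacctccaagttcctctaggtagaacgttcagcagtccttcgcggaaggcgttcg

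No aldo-keto reductase passed limma's test, with differences from -0.18 to 0.39. The bright Akr1a1 (aldehyde reductase) and Akr1b1 (aldose reductase of the polyol pathway) were at -0.02 ± 0.04 and 0.06 ± 0.08. Akr1c12 had the largest difference of the family, 0.39 ± 0.29, and it rested on PD control replicate 1: that array read 1029 a.u. while the other 5 PD controls read 3129 to 4180 a.u. and the LID arrays 3125 to 4820 a.u. Without that array the difference was 0.09. PD control replicate 1 also had the highest summed signal of choroid plexus and ependyma markers, 35900 a.u. against 4110 to 25500 a.u. on the other 11 arrays, over 12 of 16 listed genes with 0 at 0. Their part in the Akr1c12 value was not tested. The Akr1c genes are close copies, so their probes may share signal.

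Among 30 cytochromes P450, 3 genes were higher and 1 lower, 4 in all (13.3%, against 13.5% of all genes). Cyp4b1, which hydroxylates fatty acids and activates some foreign compounds, ran from 65.8 through 94.6 to 123 a.u. in LID and from 49.3 through 63.6 to 69.4 a.u. in PD control. On 5 of 6 LID arrays it was above every control (0.53 ± 0.13, limma adjusted p = 0.0162). Cyp1b1, a vessel-associated P450 under control of the aryl hydrocarbon receptor, was dim, with 55.9, 63.4 and 81.5 a.u. in LID and 50.1, 51.1 and 53.5 a.u. in PD control (lowest, median, highest). The groups did not overlap (0.31 ± 0.08, adjusted p = 0.0205).

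Both calls held in all 12 fits without 1 array. Without PD control replicates 1, 3 and 6 neither passed, at 0.57 (adjusted p = 0.0664) for Cyp4b1 and 0.28 (adjusted p = 0.135) for Cyp1b1. Since both are near the floor of the array, the size depends on the offset: with an offset of 1 in place of 50 the differences were 1.40 for Cyp4b1 and 1.36 for Cyp1b1.

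Cyp2d2, a drug-metabolising P450 of rat liver, was also near the floor. It had 66.1, 71.2 and 73.6 a.u. in LID and 63.3, 64.4 and 67.0 a.u. in PD control, a shift of 0.12 ± 0.04 (limma adjusted p = 0.0487). The call held in 1 of 12 fits without 1 array, that without LID replicate 2, and with an offset of 1 the difference was 0.35. Cyp2d genes are close copies, and their probes may share signal.

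Cyp7b1, which hydroxylates oxysterols and neurosteroids in brain, was lower in LID. It ran from 259 through 318 to 332 a.u. in LID and from 315 through 370 to 403 a.u. in PD control. The groups overlapped at the edge (-0.24 ± 0.07, limma adjusted p = 0.0363), and the call held in 5 of 12 fits without 1 array and was lost without LID replicate 3, 4 or 5 or PD control replicate 1, 2, 4 or 6. Cyp46a1, the neuronal enzyme that turns cholesterol into its exported form, and Cyp51, which acts in cholesterol synthesis, were at 0.08 ± 0.08 and 0.15 ± 0.08 without passing.

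The promoters of Cyp4b1 and Cyp1b1 are shown for the motifs matched in them. In Cyp4b1, capitals mark a match to TGACNNNGC 22 bases before the start (chr5:134393067-134393366, minus strand). In Cyp1b1, capitals mark TNGCGTG, the core of the element bound by the aryl hydrocarbon receptor, also 22 bases before the start (chr6:21094315-21094614, plus strand). Both windows are RefSeq's on GRCr8, and both matches are on the gene's strand.
Cyp4b1: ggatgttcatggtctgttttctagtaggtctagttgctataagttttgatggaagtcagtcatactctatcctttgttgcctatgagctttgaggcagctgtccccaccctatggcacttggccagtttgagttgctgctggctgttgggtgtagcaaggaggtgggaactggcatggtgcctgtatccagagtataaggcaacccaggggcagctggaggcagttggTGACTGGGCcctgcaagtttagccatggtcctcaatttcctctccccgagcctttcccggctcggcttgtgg
Cyp1b1: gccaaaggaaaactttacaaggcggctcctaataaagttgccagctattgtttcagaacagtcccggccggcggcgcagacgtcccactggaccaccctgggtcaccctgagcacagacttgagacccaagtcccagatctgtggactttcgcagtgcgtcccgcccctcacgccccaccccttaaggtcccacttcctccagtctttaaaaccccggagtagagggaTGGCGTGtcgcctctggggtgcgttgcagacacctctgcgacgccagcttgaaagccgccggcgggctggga

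ABC transporters leaned to lower values in LID. Of 20 genes, 18 had a difference below 0, and 16 to 19 did in the other fits that held all 20, while 4664 of 9218 genes (50.6%) were below 0. Most of those differences were small (median -0.089) and only 3 passed limma's test. That is 15.0% of 20, close to the 13.5% of all genes called in either direction. All 3 were lower, and 6.03% of all genes were called lower. Their directions are not independent of each other, since the arrays are shared.

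Abcg2, the breast cancer resistance protein, a drug efflux pump of the blood-brain barrier, had the largest fall of all members. Its intensities ran from 71.8 through 91.4 to 141 a.u. in LID and from 99.0 through 167 to 193 a.u. in PD control. PD control replicate 2, at 99.0 a.u., lay among the LID arrays, and the other 5 controls were above all of them. The difference was -0.65 ± 0.19 (limma adjusted p = 0.0376). The call held without LID replicate 2 (-0.74, adjusted p = 0.0186), LID replicate 3 (-0.74, adjusted p = 0.0265) or PD control replicate 2 (-0.77, adjusted p = 0.0109) and was lost without any of the other 9 arrays, with adjusted p up to 0.0857.

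Of 8 measured of 16 listed endothelial markers, 2 were higher in LID (Egfl7 0.94 ± 0.16, Esam 0.36 ± 0.08), against 7.46% of all genes, and 1 was lower (Itm2a -0.56 ± 0.10), against 6.03%. The list had sums of 2260 to 2700 a.u. in LID and 2340 to 3060 a.u. in PD control and 0 markers at 0. Their part in the Abcg2 result was not tested.

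Abcg1, which exports cholesterol to lipoprotein particles, was lower in LID with no overlap: 980, 1130 and 1219 a.u. in LID against 1283, 1363 and 1621 a.u. in PD control (lowest, median, highest). The difference was -0.33 ± 0.07 (limma adjusted p = 0.00834), and the call held in all 12 fits without 1 array and all 10 other settings. Abcc8, the sulphonylurea receptor, is the regulatory subunit of ATP-sensitive potassium channels and no pump. It had 187, 198 and 222 a.u. in LID and 208, 243 and 292 a.u. in PD control (-0.30 ± 0.08, adjusted p = 0.0194). The groups overlapped, and without PD control replicates 1, 3 and 6 the difference was -0.18 (adjusted p = 0.139). Abcc1, a pump for glutathione conjugates, was at -0.07 ± 0.05. The Abcg3l genes are close copies whose probes may share signal.

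Genes of the same chemistry outside the symbol pattern were counted in 5 lists. Por, the reductase that hands electrons to every microsomal P450, had 1243, 1509 and 1813 a.u. in LID and 831, 891 and 970 a.u. in PD control (lowest, median, highest). It was 1.68-fold higher with no overlap (0.74 ± 0.08, limma adjusted p = 0.000211). Sult1a1, a phenol sulfotransferase, had 158, 225 and 263 a.u. in LID and 113, 130 and 173 a.u. in PD control (0.65 ± 0.13, adjusted p = 0.00485). Both passed in every fit that was run, and they were the 2 genes called among 25 measured of 42 listed other drug-handling enzymes (8.00%, against 13.5% of all genes).

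Of 8 NRF2 regulators measured of 11 listed, 1 passed (12.5%, against 13.5% of all genes). Keap1, the adaptor that marks NRF2 for degradation, was lower in LID with 398, 452 and 489 a.u. against 510, 536 and 555 a.u. in PD control (lowest, median, highest). The groups did not overlap (-0.27 ± 0.05, limma adjusted p = 0.00701), and without PD control replicates 1, 3 and 6 it was -0.25 (adjusted p = 0.0617). The NRF2 gene itself, Nfe2l2, was at -0.04 ± 0.08.

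Among 16 measured of 22 listed glutathione and cystine supply genes, 3 were higher and 0 lower (18.8%, against 13.5% of all genes called and 7.46% higher). Cbs, which feeds homocysteine into cysteine synthesis, was at 0.28 ± 0.06 (limma adjusted p = 0.00939) and passed in all 12 fits without 1 array. Gss, glutathione synthetase, was at 0.29 ± 0.08 (adjusted p = 0.0253) and lost its call without LID replicate 3, 4 or 5 or PD control replicate 6. Slc3a2, the heavy chain shared by several amino acid carriers, was at 0.21 ± 0.05 (adjusted p = 0.0228) and lost it without LID replicate 4 (adjusted p = 0.056). Without PD control replicates 1, 3 and 6 none of the 3 passed, at 0.21 (adjusted p = 0.105), 0.30 (0.0973) and 0.16 (0.154) in the order above.

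In thiol repair and metal binding, 18 of 27 listed genes were measured, 1 was higher and 0 lower (5.56%, against 13.5% of all genes called and 7.46% higher). It was Blvrb, a flavin and biliverdin reductase (0.28 ± 0.08, limma adjusted p = 0.0314). Blvrb was called in 5 of 12 fits without 1 array and lost without LID replicate 3 or 4 or PD control replicate 1, 2, 3, 4 or 5. For NADPH supply, 8 of 11 were measured, 1 was higher and 0 lower (12.5%, against the same 13.5% called and 7.46% higher). It was Idh1, the cytosolic isocitrate dehydrogenase (0.44 ± 0.13, limma adjusted p = 0.0404). Idh1 was called in 3 of 12 fits without 1 array, those without LID replicate 2, LID replicate 6 or PD control replicate 1.

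**Figure D4:**
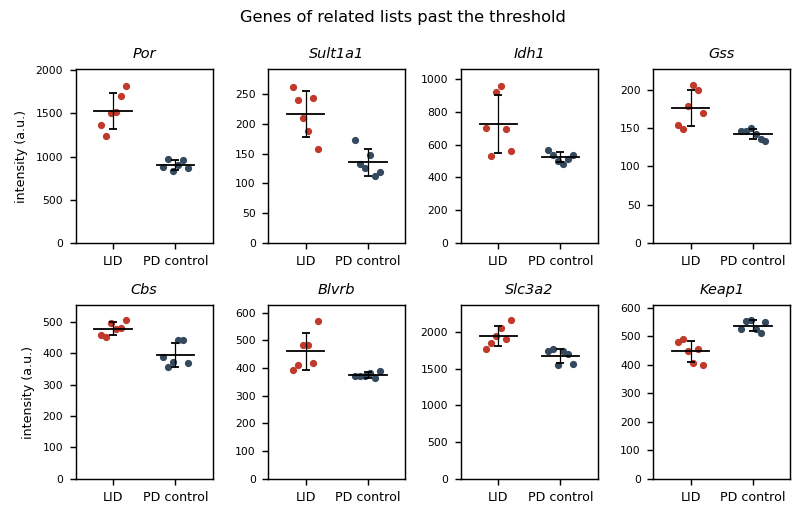
Deposited intensity (a.u., vertical axes starting at 0) on each array of the 8 called genes from the 5 related lists, 6 LID arrays left and 6 PD control arrays right, with mean and SD. The LID arrays lie wholly above the PD controls for Por, Cbs and Blvrb and wholly below for Keap1.

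Members varied more between arrays of a group than most genes: 87 of 121 (71.9%) had a within-group SD above that of the median gene. The widest was Cyp11b1, the adrenal-type steroid hydroxylase, with a within-group SD of 0.652 on the log2 scale. It ran from 56.1 to 128 a.u. in LID and reached 252 and 239 a.u. on PD control replicates 3 and 6, against 67.4 to 84.7 a.u. on the other 4 PD controls. Those same arrays had the highest mean level of cortical excitatory neuron markers, 7.79 and 7.68 on the log2 scale against 6.99 to 7.45 on the other 10 arrays, over 11 of 16 listed genes with 0 at 0. By summed intensity of these markers, the same 2 arrays read 6810 and 6860 a.u., within the LID range of 6180 to 7830 a.u. Most of that sum was Lamp5, at 4788 and 4990 a.u. on those 2 arrays. Of the 11 markers, 1 was higher in LID, against 7.46% of all genes, and 1 lower, against 6.03%. The other 9 did not pass, at -0.45 to 0.18. Emx2 went another way: it read 255.8 and 255.6 a.u. on PD control replicates 3 and 6, below the 287.6 to 358.4 a.u. of the LID arrays. The part of these markers in the Cyp11b1 values was not tested. Akr1c12 (0.567), Txnip (0.396), Cyp26b1, which degrades retinoic acid (0.391), and Abcg2 (0.366) followed.

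**Figure D5:**
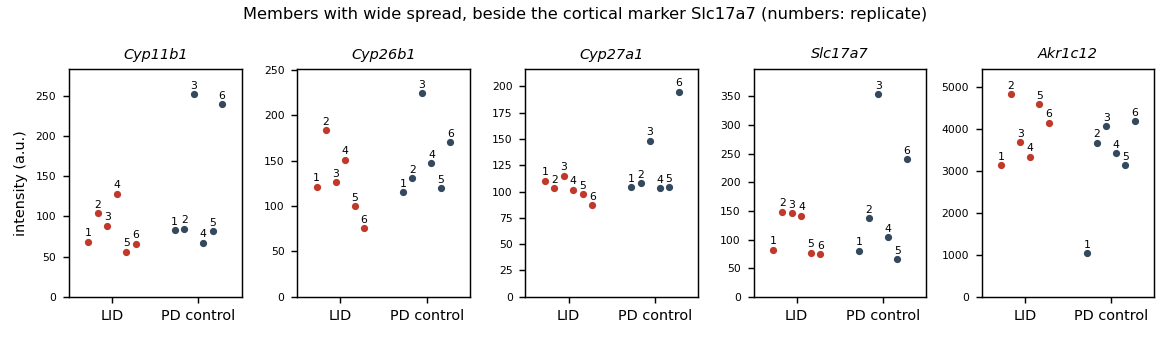
Deposited intensity (a.u., vertical axes starting at 0) on each array, LID left and PD control right, with the replicate number above each point, for 4 members of wide spread and for Slc17a7, a cortical excitatory neuron marker. Cyp11b1, Cyp26b1, Cyp27a1 and Slc17a7 had their highest values on PD control replicates 3 or 6, and Akr1c12 its lowest, 1029 a.u., on PD control replicate 1. The members drawn are a selection: Cyp27a1 (within-group SD 0.276) was not among the 10 widest. Txnip and Abcg2, which were, are not drawn and had their highest values on PD control replicates 5 and 4.

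Over promoters in general, TGACNNNGC was found on either strand in 3602 of 27457 genes of the RefSeq table (13.1%), in 1187 of the 7649 with a named probe here (15.5%) and in 22 of the 98 members whose promoter it holds (22.4%). It was present in 2 of 5 members higher in LID, 2 of 5 lower and 18 of 88 that did not pass. TNGCGTG was found in 5.45% of all promoters, in 7.57% of those of genes with a named probe here and in 10 of 98 members (10.2%). It was present in 1 of 5 members higher in LID, 0 of 5 lower and 9 of 88 that did not pass. In 1 member promoter both motifs were found with overlapping letters. The second motif was chosen after the values were seen. A match describes letters in a window of 300 bases and is not evidence of binding.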

How the data were processed

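The values are intensities on a linear scale, deposited by the authors as 1 table for the 12 arrays. Their upper quartile was 425.689 on LID replicate 1, and the highest value over all arrays was 22793. Identical values recur across arrays: Fth1 read 21234.3 a.u. on LID replicates 2, 3 and 6 and on PD control replicate 5. The values were therefore taken as already normalised between arrays. For the software, background correction, probe filter and detection calls, nothing is given in the sources used here. RNA was extracted with a kit for lipid-rich tissue, checked on a Bioanalyzer and labelled with biotin, per the labels.

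The table was background-corrected again with normexp (offset 50), quantile normalised and taken as log2 in limma 3.58.1 (R 4.3.3), then fitted with lmFit and eBayes, two-sided, with group as the sole term. Benjamini-Hochberg adjustment ran over all 13375 probes, with a threshold of 0.05. The offset makes differences of dim genes smaller. Of these probes, 9434 had 1 symbol in GEO's platform annotation, 3941 none and 0 several. A gene is read from its brightest probe: the probes of Gstp1 shared a direction, as did those of Txn1 and of Abcc10. The number of arrays limits the precision.

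Members and lists were chosen with earlier results of these data known. The text names each called member, the member with the largest difference in each family, 34 measured of 39 fixed members, and called genes of the related lists. Prdx4, Mgst3, Aldh1l1, Aldh2 and Abcb1a, and the related Slc7a11 and Srxn1, were not analysed here. Other members are named for contrast and were chosen after their values were seen. Promoters came from RefSeq (GRCr8). The steps were tested on simulated data. Figures used Python 3.11.15, pandas 2.3.3 and matplotlib 3.10.9.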

Additional observations from a re-analysis of the deposited data

Results flagged for a closer look

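Of 110 groups of 6 arrays (55 genes in 2 groups), 9 held an array set apart from the rest, with a gap over 0.625 of the group's range. Chance sets apart about 1 in 20 groups. In LID, Gpx2 read 110 a.u. on replicate 3, above the 77.3 to 86.4 a.u. of the other LID arrays. Sod3 read 400 a.u. on LID replicate 6, below 518 to 574 a.u. On LID replicate 4, Cyp7b1 read 259 a.u., below 304 to 332 a.u., and Gstm1 read 1478 a.u., below 1772 to 1972 a.u.

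The other 5 were low PD control arrays. Aldh5a1 read 172 a.u. on PD control replicate 3, against 240 to 280 a.u. on the other controls. Cyp4b1 read 49.3 a.u. on replicate 5, against 61.3 to 69.4 a.u. Abcg2 read 99.0 a.u. on replicate 2, against 154 to 193 a.u. Akr1c12 read 1029 a.u. on replicate 1, against 3129 to 4180 a.u. Aldh1a1 read 357 a.u. on replicate 6, against 474 to 550 a.u.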

How the results depend on the processing

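No direction turned in any result that passed. Against 15 members called of 121 and 1606 probes, the count was 9 with an offset of 1, 9 with the replicate number as a block and 5 without PD control replicates 1, 3 and 6, where 1059 probes were called and 816 of 9218 genes. Members higher in LID were 1 in that last fit, and members lower were 4 under each of the 3 settings. An offset of 1 and the block each called 7.44% of members, against 11% of all genes. The labels give no pairs: they number the 12 arrays in 1 run, and the LID replicate numbers were assigned here in sample order. The block therefore uses a grouping that the labels do not hold. Replicate numbers did not pair the arrays either: 2 of 6 same-numbered pairs correlated above 0.1 (-0.29 to 0.48). Only 2 of 6 LID arrays were closest to their own number. The block kept 7 of the 15 calls.

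By family, glutathione peroxidases had 1 call with median centring or an offset of 1 and 0 with the block or without those 3 arrays. The thioredoxin family had 2 with no quantile step, without the dimmest 25% of probes or with 1 probe per gene. Dismutases with catalase, and quinone, haem and glutathione supply enzymes, each had 1 with the block or array weights. Aldehyde dehydrogenases had 1 on log2 of the deposited values, with no quantile step, with the block or without the 3 arrays, and 0 with an offset of 1. Cytochromes P450 had 2 without the dimmest probes, which leave out Cyp1b1 and Cyp2d2, or with the block, and 0 without the 3 arrays. ABC transporters had 1 with the block or without the 3 arrays.

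In the related lists, NRF2 regulators had 0 without the 3 arrays, glutathione and cystine supply 1 with the block and 0 without the 3 arrays, thiol repair and metal binding 0 with an offset of 1 or without the 3 arrays, and NADPH supply 0 in those fits and with the block. The cause was not tested. Fewer arrays enter the fit without the 3.

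Without 1 array at a time, the fits called 1112 to 1557 probes and 7 to 12 members (4 to 6 higher, 3 to 7 lower), and the median difference ran from -0.028 to -0.012. By family they called 1 to 3 glutathione transferases, 1 to 2 glutathione peroxidases, 0 to 1 peroxiredoxins, 1 to 2 of the thioredoxin family, 0 to 1 dismutases or catalase, 0 to 1 supply enzymes, 0 to 2 aldehyde dehydrogenases, 0 to 1 aldo-keto reductases, 2 to 4 P450 genes and 2 to 4 ABC transporters. By list they called 1 NRF2 regulator, 1 to 3 glutathione supply genes, 0 to 1 for thiol repair, 0 to 1 for NADPH and 2 to 3 other drug-handling enzymes. Signal near the floor limits the dim genes, and with an offset of 1 Mgst2 was at 0.87, Gpx2 at 0.81 and Abcg2 at -1.10.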
